A study of Homo sapiens with 42 samples.

Results

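Integrins and cadherins are the 2 large families of cell-surface receptors that hold an epithelial cell to its surroundings and to its neighbours. The genes described here were taken by symbol from the deposited gene table, as the ITGA and ITGB genes that encode integrin α and β subunits and the CDH genes of the numbered cadherins. The rule found 49 of 60609 genes, 26 integrins and 23 cadherins, and used no measured value. An integrin is a dimer of 1 α and 1 β subunit that binds laminin, collagen, fibronectin or other matrix proteins outside the cell and talin and kindlin inside it. A cadherin binds a cadherin on the next cell and is coupled to actin through catenins. In renal tubule epithelium CDH1 (E-cadherin), CDH6 (K-cadherin) and CDH16 (Ksp-cadherin) mark different segments, and loss of CDH1 with gain of CDH2 (N-cadherin) is a known feature of mesenchymal conversion.

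All libraries were poly-A RNA-seq of 786-O, a clear cell renal cell carcinoma line in which VHL is inactive, so that HIF-2α is not degraded, and in which endogenous HIF-1α is not functional. HIF-1α and HIF-2α are the alternative α subunits of the hypoxia-inducible factor, each of which binds DNA as a dimer with HIF-1β. Every group held 3 libraries. Batch 1 held 9 groups. These were unmodified WT cells, a HIF-1β KIN and a HIF-2α KIN line in which the endogenous gene carries an N-terminal V5-Halo tag, and lines with exogenous V5-Halo-tagged HIF-1α, HIF-1α R30E, HIF-1αDM, HIF-2α, HIF-2α R27E or HIF-2αDM. R30E and R27E are point mutations of the DNA-binding domain reported to impair DNA binding, and DM marks a double mutation at the interface with HIF-1β. Batch 2 held 5 groups. WT was sequenced beside lines with HIF-1α or HIF-2α, and 2 chimeras named HIF-2α/1α and HIF-1α/2α, in which the name before the slash gives the structured N-terminal part and the name after it the long disordered C-terminal region (IDR). Each KIN line is 1 clone. The exogenous lines were made by random transposon integration into WT cells under puromycin selection, with the transgene driven by the weak L30 promoter. The WT cells had been neither transfected nor selected. The HIF protein and the making of the line therefore cannot be told apart in a comparison with WT. Nor can they between exogenous lines, since the study describes no second line of a construct within a batch. The p-values measure the spread among libraries, not among separately made lines. Cells of a line were not separated by type, so fewer cells expressing a gene and less RNA per cell cannot be told apart in these bulk libraries.

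The RefSeq table of promoter windows (GRCh38.p14, the build of the files) held 29 of the 49 members with 45 start sites. The 250 bases before each start were searched on both strands for ACGTG and GCGTG, the core letters of the hypoxia response element, with overlapping matches counted as 1. Of these 45 windows 17 held at least 1 core, beside 43.2% of all 35116 windows of that length. A match is only a description of the letters. The 5 windows below are of ITGA4, the member called in every line, and of ITGB5, ITGB8 and ITGA1. These last were the integrins called higher in lines with the disordered region of HIF-2α than in lines with that of HIF-1α. They are printed on the gene's strand with the core letters, read on either strand, in capitals. The gene counts do not separate the 3 start sites of ITGB5, of which the windows with the most and the fewest cores are given.
ITGA4, chr2:181457136-181457385, plus strand: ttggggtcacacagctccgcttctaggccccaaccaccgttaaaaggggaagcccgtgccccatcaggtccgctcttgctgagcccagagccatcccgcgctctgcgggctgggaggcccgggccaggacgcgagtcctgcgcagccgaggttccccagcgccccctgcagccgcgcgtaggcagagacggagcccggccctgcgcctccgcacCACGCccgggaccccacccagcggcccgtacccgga
ITGB8, chr7:20330650-20330899, plus strand: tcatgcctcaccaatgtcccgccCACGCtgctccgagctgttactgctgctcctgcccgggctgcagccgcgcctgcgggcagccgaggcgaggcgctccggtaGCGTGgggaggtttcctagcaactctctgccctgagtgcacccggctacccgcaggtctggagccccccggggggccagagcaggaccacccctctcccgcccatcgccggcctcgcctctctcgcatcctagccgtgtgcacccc
ITGB5, chr3:124887685-124887934, minus strand: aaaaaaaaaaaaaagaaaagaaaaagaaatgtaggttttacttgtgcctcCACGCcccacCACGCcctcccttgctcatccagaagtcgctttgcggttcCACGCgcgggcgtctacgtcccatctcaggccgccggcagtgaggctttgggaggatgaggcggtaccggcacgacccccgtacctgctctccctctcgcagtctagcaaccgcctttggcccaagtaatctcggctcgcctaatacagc
ITGB5, chr3:124901419-124901668, minus strand: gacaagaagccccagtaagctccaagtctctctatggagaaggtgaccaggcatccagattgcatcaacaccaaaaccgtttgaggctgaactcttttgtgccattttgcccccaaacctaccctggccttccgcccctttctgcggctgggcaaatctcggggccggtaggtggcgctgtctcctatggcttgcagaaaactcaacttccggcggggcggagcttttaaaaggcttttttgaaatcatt
ITGA1, chr5:52787666-52787915, plus strand: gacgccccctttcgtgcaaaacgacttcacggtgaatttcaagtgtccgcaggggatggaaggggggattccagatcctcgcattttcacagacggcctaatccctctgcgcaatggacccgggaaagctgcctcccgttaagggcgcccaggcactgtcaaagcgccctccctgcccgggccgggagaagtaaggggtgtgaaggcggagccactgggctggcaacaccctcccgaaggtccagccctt
ITGA4 held 1 core, ITGB8 held 2, the ITGB5 start nearer the gene's 3' end held 3, and no core was found in the window of the other ITGB5 start or of ITGA1. The table had no entry for ITGB2, ITGA3, ITGB3, ITGB4, ITGA7, ITGA9, ITGAD, ITGAL, ITGAX, CDH1, CDH3, CDH5, CDH6, CDH11, CDH13, CDH15, CDH16, CDH17, CDH22 and CDH24.

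Library totals ran from 42377599 to 101186554 counts in batch 1 and from 76366799 to 109642159 in batch 2. Values below are normalized counts, in which the counts of a library were scaled to the mean effective library size of its batch, and 3 values in a row are the libraries numbered 1, 2 and 3. A level is given as mean ± SD (n = 3) and a log2 change ± its standard error. A gene was called where edgeR's quasi-likelihood test gave a Benjamini-Hochberg adjusted p of at most 0.01 over all genes of the batch and the fold was at least 2. The transgenes were visible in the counts. HIF1A was 242 ± 13.5 in WT and 3038 ± 233 in the HIF-1α line of batch 1, and 293 ± 28.1 and 13161 ± 494 in batch 2. EPAS1, which encodes HIF-2α, was 14498 ± 2021 in WT and 44694 ± 6296 in the HIF-2α line of batch 1, and 12621 ± 820.0 and 42541 ± 319.8 in batch 2. EPAS1 was 6177 ± 497 in HIF-2α KIN of batch 1. It was 22951 ± 2617 and 16360 ± 1137 in HIF-1α of batches 1 and 2. HIF1A was 910 ± 280 and 936 ± 144 in HIF-2α of batches 1 and 2. In batch 2, HIF-2α/1α had 9625 ± 75.7 for HIF1A and 20745 ± 1262 for EPAS1. HIF-1α/2α had 9734 ± 623 and 51430 ± 3088. The part of these unequal levels in the results below was not tested. Renal markers were present in part. PAX8 was at least 19516 in every library of batch 1 and 18610.2 of batch 2, and PAX2, VIM, KRT8 and KRT18 were also above 0 in every library. The summed level of the 11 renal tubule and clear cell carcinoma genes, most of it from KRT8 and VIM, ran from 198948 to 247812 over the groups of batch 1 and from 352337 to 408545 in batch 2. The apical tubule marker LRP2 was at 0 in 25 of 27 and 12 of 15 libraries, and AQP1 had a median of 8.86 and 13.3. The clear cell marker CA9 averaged 0.968 in WT of batch 1 and was at 0 in WT of batch 2.

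In WT cells ITGA3, ITGB5, ITGA5, ITGB1, CDH2 and ITGAV were the most abundant members. Detected, meaning a mean raw count of at least 10 over the libraries of a batch, were 28 members in batch 1 (20 integrins and 8 cadherins) and 31 in batch 2 (21 and 10), and all 28 of batch 1 were among the 31 of batch 2. The 3 detected in batch 2 alone were ITGA10, CDH17 and CDH26. Levels of different genes were compared per kilobase of exon, with all annotated exons of a gene joined. This length was 14.6 kb for ITGB1, 19.3 kb for ITGAV and 6.52 kb for ITGB5. It can exceed the length of the transcript that a cell makes, so the order of genes depends on it. The SD of the libraries does not include this uncertainty. On this scale ITGA3, the α subunit of a laminin receptor, led in both batches, at 14870.5 ± 2731 and 10187 ± 83.4 normalized counts per kilobase. In batch 1 it was followed by ITGB5 at 5716 ± 329, ITGA5 at 3525 ± 484, ITGB1 at 1872 ± 215, CDH2 at 1110.5 ± 89.2 and ITGAV at 682 ± 39.4, and these neighbours did not overlap within 1 SD. In batch 2 the same 6 genes led, with ITGB1 second at 7146 ± 356, ITGB5 at 4299 ± 358, CDH2 at 3550.1 ± 78.3, ITGA5 at 2906 ± 37.1 and ITGAV at 1644 ± 82.9. Further down batch 1, CDH6 at 229 ± 63.4, ITGB8 at 213 ± 11.9 and ITGB3 at 188 ± 35.2 did not differ beyond their SD, and neither did CDH13 at 140.1 ± 38.5, ITGA6 at 138 ± 8.47 and ITGB2 at 132 ± 30.6. The order differed between batches for genes such as ITGA6, which was 648 ± 36.1 in batch 2, and the batches differed in RNA extraction and library kit. CDH1 was close to absent, with at most 12 raw counts in any library of batch 1 and 20 in batch 2, so the abundant classical cadherin of these cells was CDH2. CDH10 and CDH9 had 0 counts in all libraries of both batches, and CDH12 and CDH18 in all of batch 1, where a count of 0 allows up to 3 counts in a library.

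**Figure D1:**
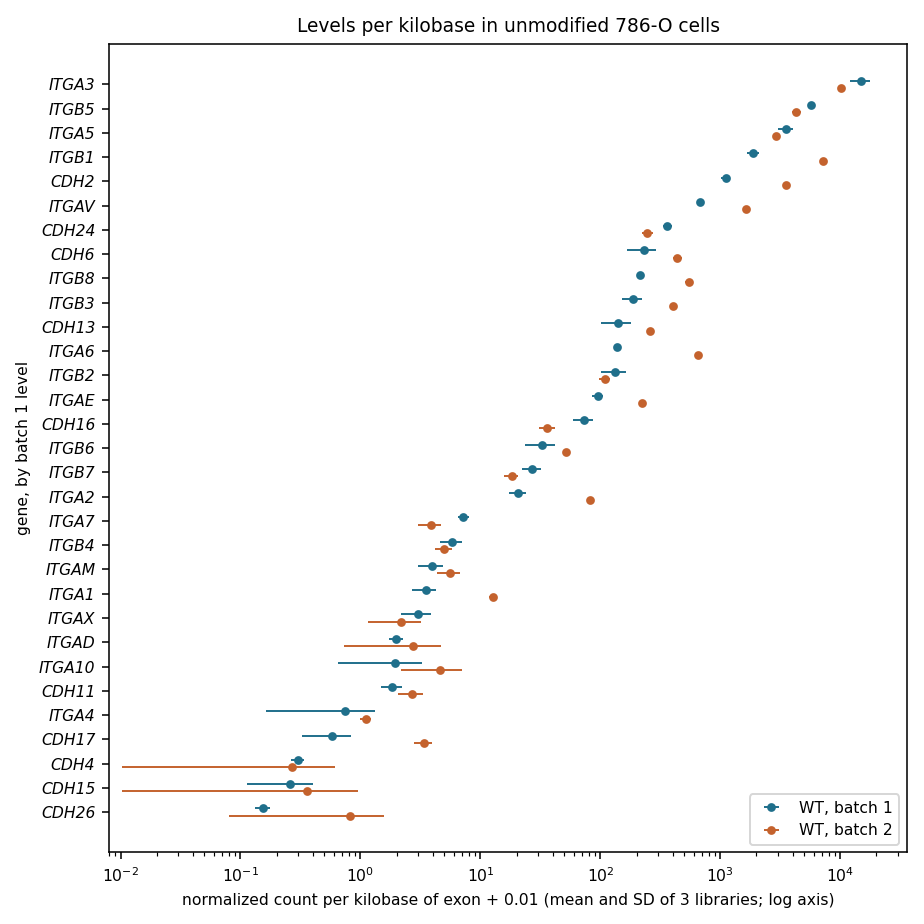
Levels of the 31 detected genes in unmodified 786-O cells, as normalized count per kilobase of exon plus 0.01 (log axis, mean and SD of 3 libraries), blue for batch 1 and orange for batch 2, ordered by batch 1. ITGA3 stands highest in both batches, and CDH4, CDH15 and CDH26 lie at the bottom.

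Against WT, the lines with a functional HIF-α changed more members than the lines with a DNA-binding or dimerization mutant, except HIF-1α R30E. These counts were not tested against each other, and the comparisons of a batch share their 3 WT libraries, so they are given side by side and are not independent. In batch 1 the test covered 39 members, of which 11 were not detected by the rule above. ITGA11 was among these 11. It was at 0 in WT, so it could only be called higher. CDH4, CDH15 and ITGA4 were detected over the batch, but in WT they had only 0.289, 0.248 and 0.733 normalized counts per kilobase. A call of lower was hardly possible for them either. HIF-1α had 7 members called higher (CDH4, CDH6, CDH11, CDH15, CDH16, ITGA4 and ITGB4) and 0 lower, beside 3.27% called higher and 0.517% lower of all genes tested. HIF-2α had 9 higher (ITGA4, ITGA5, ITGA11, ITGB4, ITGB5, CDH4, CDH11, CDH15 and CDH16) and 3 lower (ITGB2, ITGB7 and CDH13), beside 3.78% called higher and 1.94% lower. HIF-1α R30E had 9 higher (CDH4, CDH6, CDH11, CDH15, CDH16, ITGA4, ITGA11, ITGB4 and ITGB6) and 1 lower (CDH13), beside 2.04% called higher and 0.572% lower. HIF-1αDM had 1 higher, ITGA4, beside 0.453% called higher and 0.00427% lower. HIF-2α R27E had 1 higher, again ITGA4, beside 0.449% called higher and 0.047% lower. Blocked on replicate number, the fit called 6 members for the first of these mutants and 3 for the second. The share of all genes called in the blocked fit is not given here. HIF-2αDM had 2 higher, CDH4 and ITGA4, beside 0.44% called higher and 0.0342% lower. Among the knock-in clones, HIF-1β KIN had 2 higher (ITGA3 and ITGA4) and 1 lower (CDH11), beside 0.393% called higher and 0.982% lower, and HIF-2α KIN had 6 higher (ITGA3, ITGA4, ITGB4, ITGB6, CDH6 and CDH15) and 2 lower (ITGB8 and CDH11), beside 2.35% called higher and 1.79% lower.

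The test covered 43 members in batch 2, of which 12 were not detected. Among these were CDH1, CDH3, CDH7, CDH23 and ITGA11. They were at or near 0 in WT of batch 2, so they could only be called higher. The detected CDH4, CDH15 and ITGA4 were also low there, at 0.258, 0.348 and 1.09 normalized counts per kilobase, and could hardly be called lower. The undetected members are part of the counts and medians of both batches. HIF-1α had 10 members higher (CDH3, CDH4, CDH6, CDH11, CDH15, CDH16, ITGA4, ITGA11, ITGB4 and ITGB6) and 0 lower, beside 3.9% called higher and 0.484% lower of all genes. HIF-2α/1α had 11 higher (the same genes without ITGB6 and with CDH1 and CDH23) and 0 lower, beside 2.98% called higher and 0.508% lower. HIF-2α had 12 higher (CDH3, CDH4, CDH7, CDH11, CDH15, CDH16, CDH23, ITGA1, ITGA4, ITGA11, ITGB4 and ITGB5) and 3 lower (CDH13, ITGB2 and ITGB7), beside 5.45% called higher and 2.13% lower. HIF-1α/2α had 9 higher (CDH3, CDH4, CDH11, CDH16, CDH23, ITGA1, ITGA4, ITGB4 and ITGB6) and 2 lower (CDH13 and ITGB2), beside 5.1% called higher and 2.68% lower. The median log2 change of the tested members was 0.53 for HIF-1α and 0.50 for HIF-2α in batch 1, beside -0.03 and -0.09 over all genes, and in batch 2 it was 0.51 and 0.63, beside 0.03 and 0.07.

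**Figure D2:**
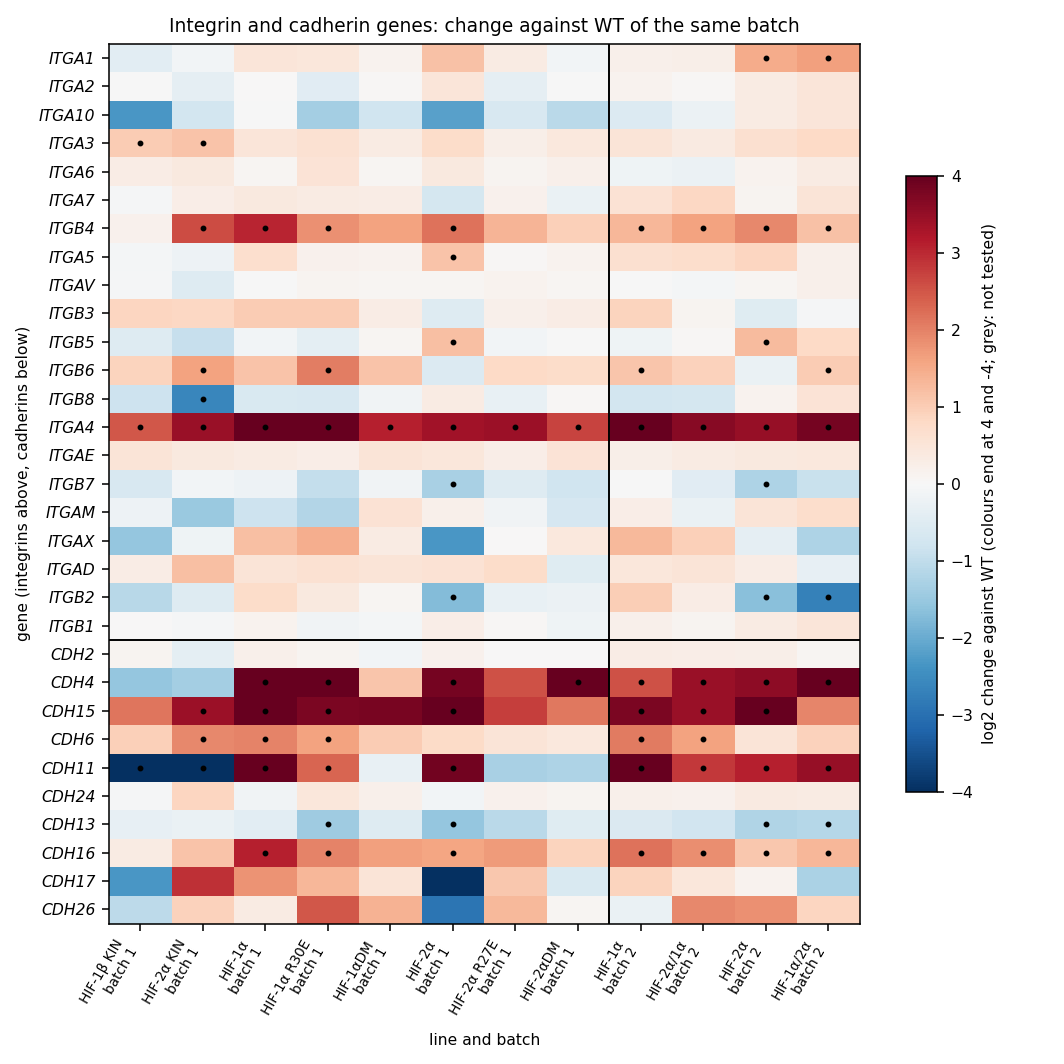
Log2 change against WT of the same batch for the 31 detected genes (rows, integrins above the black line and cadherins below) in 8 lines of batch 1 and 4 of batch 2 (columns), red for higher and blue for lower, with a dot where the gene was called. ITGA4 carries a dot in all 12 columns, and CDH11 changes from blue in the 2 knock-in clones to red in the HIF-1α and HIF-2α lines.

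Among the laminin receptors, ITGB4 was the gene that moved most. ITGB4 (chr17:75721328-75757818, plus strand) encodes the β subunit that pairs with ITGA6 in hemidesmosomes. In batch 1 it was 43.8, 30.0 and 43.6 in WT, 238, 486 and 247 in HIF-1α, 166, 168 and 201 in HIF-2α and 280.0, 239.8 and 194 in HIF-2α KIN, and none of these lines overlapped WT. Its change was log2 3.04 ± 0.36, adjusted p = 1.09e-06 for HIF-1α and log2 2.18 ± 0.35, adjusted p = 5.58e-05 for HIF-2α. In batch 2 the WT libraries had 37.6, 27.5 and 36.1, and the 4 lines changed by 1.34 ± 0.28 (HIF-1α), 1.91 ± 0.28 (HIF-2α), 1.59 ± 0.28 (HIF-2α/1α) and 1.17 ± 0.28 (HIF-1α/2α), each called. Its partner gene ITGA6 was not called in any of the 12 comparisons with WT and ran from a group mean of 920.4 ± 56.5 in WT to 1343 ± 94.8 in HIF-1α R30E in batch 1. ITGA3 was 119418, 144925 and 172940.0 in WT, 248843, 286388 and 353714 in HIF-1β KIN and 321381, 337920.0 and 302848 in HIF-2α KIN. Every KIN library exceeded every WT library, and the changes were log2 1.02 ± 0.20, adjusted p = 0.00294 and log2 1.14 ± 0.21, adjusted p = 3.36e-04. In batch 2, ITGA3 passed the adjusted p in all 4 lines at changes between 0.37 ± 0.04 and 0.81 ± 0.05, under the 2-fold criterion. ITGA7 was not called in any comparison and its group means lay between 39.8 ± 4.32 and 86.4 ± 7.31 in batch 1.

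Of the collagen receptors, ITGA1 followed HIF-2α in batch 2. ITGA1 (chr5:52787916-52959209, plus strand, with 3 other annotated genes on the same strand within its span) had 218, 248 and 237 in WT, 269, 260.4 and 284 in HIF-1α, 278, 316 and 225 in HIF-2α/1α, 611, 690.4 and 679.6 in HIF-2α and 778, 691 and 706 in HIF-1α/2α. The lines with the IDR of HIF-2α stood apart from the rest without overlap. The change was log2 1.49 ± 0.12, adjusted p = 6.65e-14 for HIF-2α and log2 1.63 ± 0.12, adjusted p = 3.78e-15 for HIF-1α/2α. For HIF-1α it was 0.21 ± 0.13, with a 95% interval of -0.05 to 0.47. In batch 1, HIF-2α had 201, 146 and 96.7 against 66.1, 49.3 and 78.7 in WT, log2 1.18 ± 0.37, adjusted p = 0.031, which missed the threshold. ITGA2 and ITGA10 were not called in either batch. Group means of ITGA2 ran from 118 ± 9.84 to 228 ± 27.9 in batch 1 and from 653 ± 16.5 to 915 ± 153 in batch 2, and those of ITGA10 from 19.5 ± 4.05 to 40.5 ± 14.8 in batch 2. ITGA11, normally a receptor of mesenchymal cells, had 0 raw counts in all WT libraries of both batches and 16.2, 30.1 and 18.8 normalized counts in HIF-1α R30E and 14.5, 9.68 and 12.3 in HIF-1α of batch 2. It was called higher in HIF-1α R30E and HIF-2α of batch 1 and in HIF-1α, HIF-2α/1α and HIF-2α of batch 2, and no library had more than 30.1 normalized counts.

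Among the receptors that recognise the RGD motif of fibronectin and vitronectin, ITGB5 rose with HIF-2α in both batches and ITGA5 in batch 1. ITGB5 (chr3:124761948-124901418, minus strand) encodes the partner of ITGAV in a vitronectin receptor. Its batch 1 levels were 39714, 35903 and 36103 in WT, 37507, 38018 and 28544 in HIF-1α, 101350.0, 74069 and 79072 in HIF-2α, 36720.1, 34009.9 and 32529 in HIF-2α R27E and 39675, 39166 and 32244 in HIF-2αDM. The 3 HIF-2α libraries lay above all others of the batch. The change was log2 1.19 ± 0.17, adjusted p = 1.68e-05, while the 95% interval was -0.47 to 0.24 for R27E and -0.36 to 0.35 for DM. Batch 2 gave 26605, 26719 and 30698 in WT, 24240.4, 24938 and 25471 in HIF-1α, 29299, 28006 and 28745 in HIF-2α/1α, 67799.7, 69211 and 66711 in HIF-2α and 49018, 50755 and 46481 in HIF-1α/2α. HIF-2α was called at log2 1.28 ± 0.05, adjusted p = 9.21e-25, and HIF-1α/2α reached log2 0.80 ± 0.05, adjusted p = 1.12e-17, below 2-fold. In HIF-2α KIN of batch 1 the level was 24639, 18244 and 15967, at a change of log2 -0.92 ± 0.17, adjusted p = 5.35e-04, again below 2-fold. Its partner ITGAV stayed within a change of -0.51 ± 0.16 and 0.19 ± 0.07 in the 12 comparisons and was not called.

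ITGA5, the α subunit of the main fibronectin receptor, had 22501, 25924 and 29643 in WT, 38306, 44114 and 41612 in HIF-1α and 58508, 52843 and 60453 in HIF-2α of batch 1. HIF-2α was called (log2 1.14 ± 0.17, adjusted p = 1.43e-05) and HIF-1α stayed below 2-fold (log2 0.67 ± 0.16, adjusted p = 0.00836). In batch 2, ITGA5 was 21752, 21386 and 21216 in WT, 40032, 39071 and 37811 in HIF-2α and 24544, 25586 and 23569 in HIF-1α/2α, and the HIF-2α change of 0.86 ± 0.05 passed the adjusted p (adjusted p = 2.02e-19) but not 2-fold. The higher level was not particular to HIF-2α. As a share of all α subunits per kilobase, ITGA5 made up 18.5% ± 0.158 in WT, 20.8% ± 0.465 in HIF-1α and 23.2% ± 0.704 in HIF-2α/1α of batch 2. It made up 22.0% ± 0.539 in HIF-2α and 13.7% ± 0.650 in HIF-1α/2α. ITGB1, the partner of ITGA5 and of most collagen and laminin α subunits, was not called in any comparison, and its changes against WT ran from -0.16 ± 0.20 to 0.50 ± 0.05.

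ITGB6 and ITGB8 encode β subunits that bind ITGAV and activate latent TGF-β. ITGB6 (chr2:160099667-160200313, minus strand) was 221, 218 and 129 in WT and 522, 1177 and 653 in HIF-1α R30E, 687, 539.6 and 521 in HIF-2α KIN and 104, 143 and 137 in HIF-2α of batch 1. It rose by log2 2.05 ± 0.31, adjusted p = 5.07e-05 in R30E and by log2 1.62 ± 0.30, adjusted p = 5.24e-04 in HIF-2α KIN. In batch 2 it was 296, 294 and 309.7 in WT, 623, 672 and 651 in HIF-1α, 593, 569.8 and 548 in HIF-2α/1α, 221, 248 and 288 in HIF-2α and 639, 534 and 657 in HIF-1α/2α. HIF-2α was the line of batch 2 without a higher level than WT, with a change of -0.25 ± 0.12 and a 95% interval of -0.50 to -0.01. ITGB8 (chr7:20330702-20415754, plus strand) fell in HIF-2α KIN, where it was 443, 621 and 531 against 3031, 3302 and 3373 in WT (log2 -2.61 ± 0.20, adjusted p = 1.03e-09). No library of any other batch 1 line overlapped the HIF-2α KIN libraries. In batch 2 ITGB8 was 8415, 8945 and 7593 in WT, 4996, 5301 and 4703 in HIF-1α and 13312, 11953 and 11466 in HIF-1α/2α, and these changes of -0.73 ± 0.07 and 0.56 ± 0.07 passed the adjusted p but not 2-fold. ITGB8 was not called against WT in any line of batch 2. ITGB3, a β subunit shared by vitronectin and platelet receptors, was not called against WT. Its change in HIF-1α was log2 1.01 ± 0.28, adjusted p = 0.0239 in batch 1 and log2 0.88 ± 0.07, adjusted p = 3.27e-14 in batch 2. ITGA2B stayed under 10 mean raw counts and ITGA8 under 1.

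ITGA4 was the only member called in all 12 comparisons with WT. ITGA4 (chr2:181457202-181538940, plus strand, overlapped on the opposite strand by CERKL) encodes the α subunit of receptors for fibronectin and VCAM1. WT had 5.78, 2.9 and 14.8 in batch 1 and 10.6, 11.3 and 13.0 in batch 2. The HIF-1α line had 298, 386 and 302 in batch 1 and 380.0, 360.1 and 227 in batch 2. The HIF-2α line had 94.8, 84.2 and 73.3 in batch 1 and 117, 165 and 109 in batch 2. Even the lines with the lowest values, HIF-1β KIN at 43.0, 50.0 and 44.4 and HIF-2αDM at 53.5 ± 18.9, did not overlap WT. The change was log2 5.32 ± 0.43, adjusted p = 2.4e-09 for HIF-1α, log2 3.35 ± 0.42, adjusted p = 1.45e-06 for HIF-2α and log2 2.70 ± 0.41, adjusted p = 2.86e-04 for HIF-2αDM in batch 1. For the 2 KIN clones it was log2 2.48 ± 0.41, adjusted p = 3.71e-04 and log2 3.44 ± 0.42, adjusted p = 1.45e-06. In batch 2 the 4 lines changed by 4.78 ± 0.28, 3.65 ± 0.29, 3.47 ± 0.29 and 3.82 ± 0.28 in HIF-1α, the chimera with its IDR, HIF-2α and the chimera with the HIF-2α IDR. Within a batch these comparisons rest on the same 3 low WT libraries, so the size of the changes is uncertain. Fits without 1 library gave batch 1 changes of 4.96 to 6.18 in HIF-1α and 3.00 to 4.21 in HIF-2α. In fits of only the groups compared, 4 of the 12 ITGA4 calls were lost, those of HIF-2α R27E (edgeR, adjusted p = 0.0566), HIF-1β KIN (0.0388), HIF-2αDM (0.0127) and HIF-1αDM (0.0124). ITGB7, a β partner of ITGA4 in lymphocytes, fell in HIF-2α. It went from 142, 122 and 97.7 to 58.4, 38.4 and 51.0 in batch 1 and from 84.7, 68.7 and 89.2 to 40.6, 26.6 and 35.2 in batch 2, at changes of log2 -1.29 ± 0.29, adjusted p = 0.00263 and log2 -1.23 ± 0.29, adjusted p = 5.32e-04. ITGAE, its other α partner, was not called in any comparison, with group means from 628 ± 61.0 in WT to 920.3 ± 186 in HIF-2αDM of batch 1, and ITGA9 stayed under 3 mean raw counts.

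ITGB2, the common β subunit of the leukocyte integrins, was present in these epithelial cells and fell with HIF-2α. ITGB2 (chr21:44885953-44931989, minus strand, overlapped on the opposite strand by ITGB2-AS1, where reads on exons of both genes were not counted) had 818, 1224 and 859 in WT, 1730.3, 1517 and 1581 in HIF-1α and 207, 251 and 409 in HIF-2α of batch 1. The 3 groups did not overlap. The change was log2 -1.73 ± 0.31, adjusted p = 2.39e-04 in HIF-2α, and HIF-1α was at log2 0.74 ± 0.30, adjusted p = 0.157, which missed the threshold. Batch 2 showed 871, 823 and 709 in WT, 1589, 1625 and 1548 in HIF-1α, 976, 851 and 1146 in HIF-2α/1α, 200.3, 245 and 311 in HIF-2α and 92.8, 134 and 145 in HIF-1α/2α. The falls were log2 -1.68 ± 0.13, adjusted p = 9.64e-15 for HIF-2α and log2 -2.71 ± 0.14, adjusted p = 1.09e-20 for HIF-1α/2α, and the HIF-1α change of log2 0.99 ± 0.12, adjusted p = 4.32e-09 lay just under 2-fold. The α partners were low: ITGAM had at most 38.0 normalized counts in any library of batch 1, ITGAX 81.0 and ITGAD 35.5, and ITGAL had at most 1 raw count in any library. Leukocyte markers were low. PTPRC was at 0 in 25 of 27 libraries of batch 1 and 5 of 15 of batch 2, and CD3E in every library, while CD14 and CD79A were above 0 in every library, CD14 at up to 37.6 and CD79A at up to 29.5. The sum of the 8 leukocyte markers lay between 12.6 and 47.4 over the groups of batch 1 and between 27.6 and 34.8 in batch 2.

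**Figure D3:**
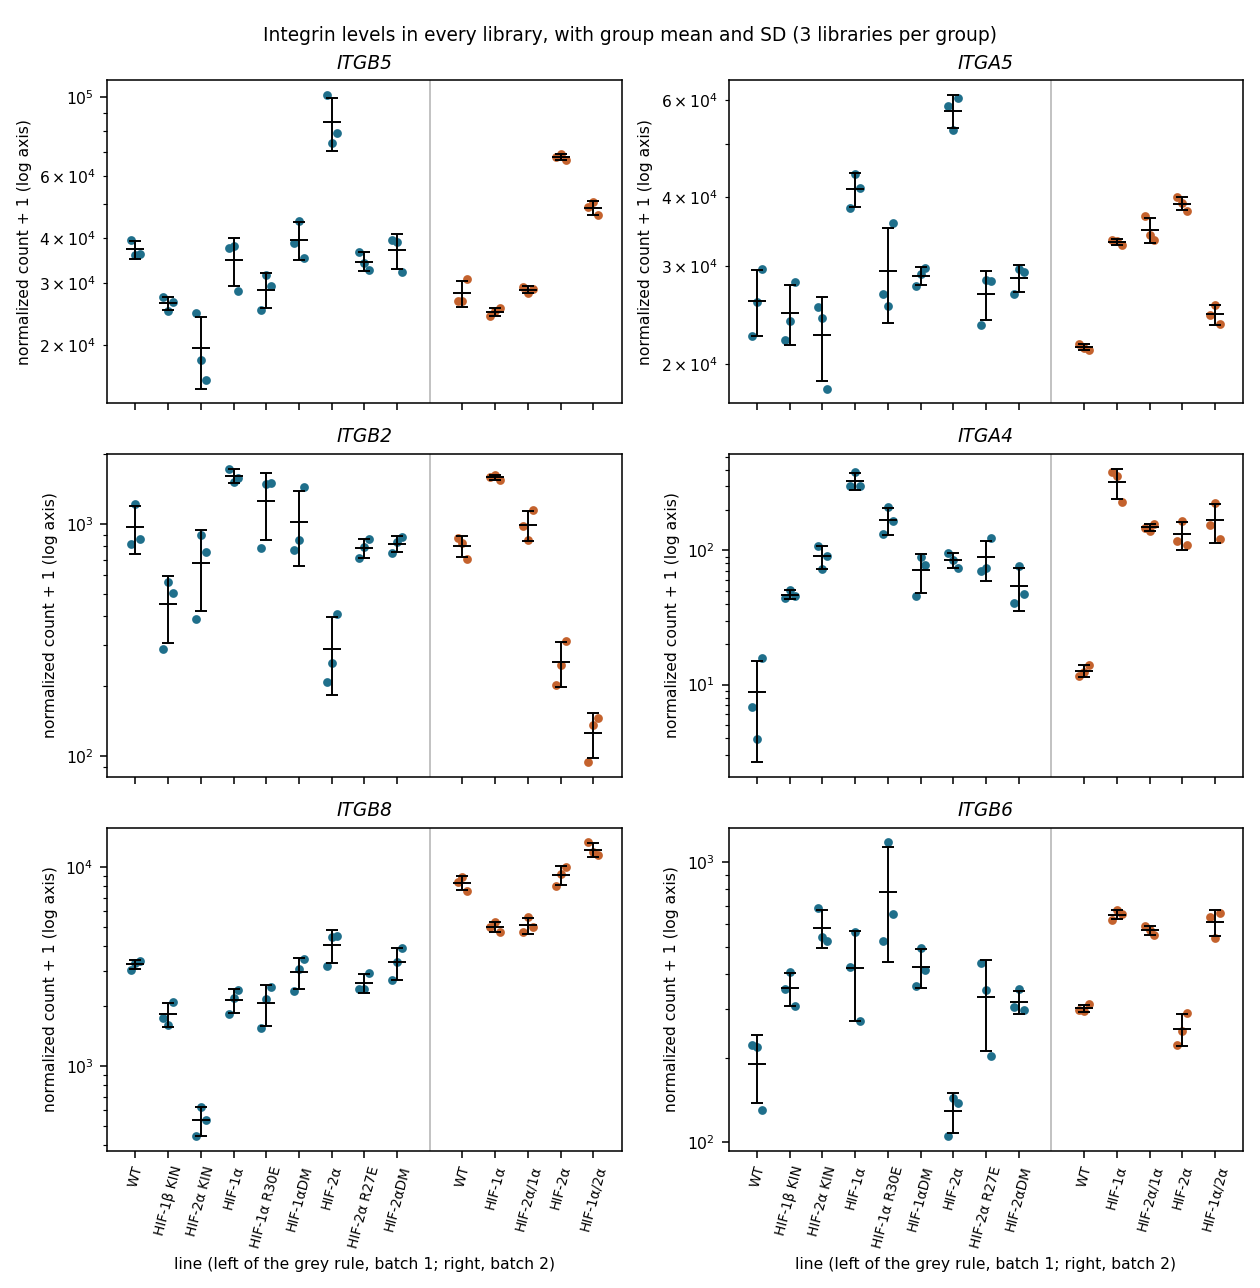
Normalized counts (plus 1, log axis) of 6 integrin genes in every library, with group mean and SD (n = 3), batch 1 in blue and batch 2 in orange. ITGB5 and ITGA5 are highest in the HIF-2α line of each batch, ITGB2 has its lowest mean in HIF-2α of batch 1 and in HIF-2α and HIF-1α/2α of batch 2, and ITGA4 is lowest in WT.

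CDH2 was the dominant classical cadherin and was not called in any comparison. CDH2 (chr18:27932879-28177946, minus strand) had 10229.6, 8713 and 9651 in WT, 10608, 9585 and 12678 in HIF-1α and 10346, 11530.2 and 10452 in HIF-2α of batch 1. HIF-1α overlapped WT, and the HIF-2α libraries lay just above it. The 95% interval of the change was -0.09 to 0.49 for HIF-1α and -0.11 to 0.47 for HIF-2α. The largest change of batch 2 was log2 0.28 ± 0.05, adjusted p = 4.77e-06 in HIF-1α, below 2-fold. CDH1 was called in HIF-2α/1α of batch 2 alone, at 9.46, 17.2 and 21.1 normalized counts against 0, 0 and 1.00 in WT. CDH3 (P-cadherin) was at 0 in the 3 WT libraries of batch 2 and had 13.5, 7.74 and 14.2 in HIF-1α and 4.96, 15.0 and 10.6 in HIF-2α. CDH4 (R-cadherin) was 2.48, 1.94 and 2.11 in WT, 49.1, 34.7 and 50.1 in HIF-1α, 202, 141 and 180.1 in HIF-1α R30E and 35.9, 57.3 and 31.6 in HIF-2αDM of batch 1. The R30E libraries, which carry a HIF-1α reported to bind DNA poorly, were the highest of the batch. CDH15 (M-cadherin, a muscle cadherin) had 0.826, 1.94 and 0.703 in WT and 42.5, 47.2 and 41.0 in HIF-1α. These 4 genes had at most 202 normalized counts in any library (CDH4), and with WT at or near 0 no fold is given for them.

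Among the type II cadherins, CDH11 rose with functional HIF-α of either kind and fell in the knock-in clones. CDH11 (OB-cadherin, chr16:64943753-65126112, minus strand), known from osteoblasts and fibroblasts, was 28.1, 26.1 and 19.0 in WT, 625, 680.3 and 651 in HIF-1α, 120.1, 131 and 115 in HIF-1α R30E and 15.9, 27.3 and 15.9 in HIF-1αDM of batch 1. The HIF-2α series gave 297, 318 and 458 in HIF-2α, 5.57, 13.5 and 10.8 in HIF-2α R27E and 6.94, 11.5 and 11.9 in HIF-2αDM. The KIN clones had 0, 2.13 and 0 and 1.31, 1.43 and 0. The lines with unmutated HIF-1α or HIF-2α stood above every other group, R30E lay between them and WT, and both KIN clones lay below WT. CDH11 rose by log2 4.74 ± 0.38, adjusted p = 1.9e-09 in HIF-1α, by log2 3.87 ± 0.37, adjusted p = 1.83e-08 in HIF-2α and by log2 2.32 ± 0.36, adjusted p = 6.85e-05 in R30E. The double mutants differed from WT by -0.30 ± 0.37 and -1.23 ± 0.39 and were not called, although the HIF-2αDM libraries lay below WT. The fall in the KIN clones was called, with adjusted p 4.02e-06 and 3.65e-06, and no fold is given at so few counts. Batch 2 gave 27.9, 34.0 and 45.1 in WT, 760.0, 691 and 814 in HIF-1α, 240.1, 246 and 279.6 in HIF-2α/1α, 284, 304 and 337 in HIF-2α and 373, 412 and 406 in HIF-1α/2α, with changes between 2.84 ± 0.17 and 4.41 ± 0.16. The sum of the 4 fibroblast markers moved differently. It was 222 in WT, 152 in HIF-1α, 95.7 in HIF-2α and 1122 in HIF-2α KIN of batch 1, and 313, 112, 73.5 and 28.5 in WT, HIF-1α, HIF-2α and HIF-1α/2α of batch 2. PDGFRB carried most of it in batch 1, while DCN was at 0 in all 27 libraries and PDGFRA in 24. The part of these markers in the CDH11 result was not tested.

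CDH6 (K-cadherin, chr5:31193686-31329146, plus strand), the cadherin of the fetal kidney and proximal tubule, followed HIF-1α more than HIF-2α. In batch 2 it was 5015, 5370.1 and 5974 in WT, 24217, 23862 and 21635 in HIF-1α, 16812, 16811 and 15878 in HIF-2α/1α, 7006, 7660.4 and 8606 in HIF-2α and 10763, 9824 and 10498 in HIF-1α/2α. The 5 groups did not overlap. CDH6 rose by log2 2.09 ± 0.07, adjusted p = 3.2e-28 in HIF-1α and log2 1.60 ± 0.06, adjusted p = 6.31e-24 in HIF-2α/1α, and the changes of 0.51 ± 0.06 in HIF-2α and 0.93 ± 0.06 in HIF-1α/2α passed the adjusted p below 2-fold. Batch 1 gave 2801, 3669 and 2095 in WT, 13116, 12798 and 7790.1 in HIF-1α, 9381, 13799 and 9093 in HIF-2α KIN and 6174, 4663 and 3793 in HIF-2α, with log2 1.98 ± 0.30, adjusted p = 5.03e-05 for HIF-1α and log2 1.91 ± 0.30, adjusted p = 6.86e-05 for HIF-2α KIN. CDH24 was not called in any comparison, and its group means ran from 1238 ± 134 in HIF-1α to 2445 ± 444 in HIF-2α KIN of batch 1. CDH5, the endothelial cadherin, had at most 5 raw counts in a library of batch 2. The sum of the 6 endothelial markers ran from 35.5 in WT to 347 in HIF-1α/2α of batch 2. TIE1, at up to 299.8 in a library of batch 2, carried most of that highest sum, and no other of these markers exceeded 38.1 there. CDH7 was at 0 in WT of both batches and had 11.1, 14.8 and 7.44 in HIF-2α of batch 1 and 8.92, 23.1 and 16.4 in HIF-2α of batch 2, of which the latter was called. CDH20, CDH8, CDH19 and CDH22 stayed under 5 mean raw counts.

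Among the other cadherins, CDH16 rose and CDH13 fell. CDH16 (Ksp-cadherin, chr16:66908122-66918917, minus strand) is specific to kidney tubules. It was 220.5, 318 and 245 in WT, 2177, 3415 and 1152 in HIF-1α, 410.3, 1246 and 776 in HIF-1αDM and 998, 651 and 687 in HIF-2α of batch 1. Each of these lines lay above WT without overlap, and the spread within HIF-1α was wide. The change was log2 3.10 ± 0.39, adjusted p = 3.58e-06 for HIF-1α, log2 1.58 ± 0.38, adjusted p = 0.00454 for HIF-2α and log2 1.63 ± 0.38, adjusted p = 0.025 for HIF-1αDM, the last of which missed the threshold. In batch 2 CDH16 was 149, 110.0 and 128 in WT, 664, 595 and 479 in HIF-1α and 281, 226 and 303 in HIF-2α, with changes from 1.07 ± 0.15 in HIF-2α to 2.17 ± 0.15 in HIF-1α, all called. CDH13 (T-cadherin, chr16:82626965-83800640, plus strand, with 8 annotated genes on the opposite strand within its span) is anchored to the membrane by lipid and lacks an intracellular domain. In batch 2 it was 2880.3, 2952 and 2758 in WT, 1900.0, 1909 and 1887 in HIF-1α, 1261, 1243 and 1227 in HIF-2α and 1384, 1238 and 1249.7 in HIF-1α/2α. All lines lay below WT, and the fall was called in HIF-2α (log2 -1.20 ± 0.07, adjusted p = 9.36e-19) and HIF-1α/2α (log2 -1.15 ± 0.07, adjusted p = 3.72e-18). In batch 1 the HIF-2α line fell from 1990.2, 1499.6 and 1145 to 564, 579 and 456 (log2 -1.54 ± 0.34, adjusted p = 0.00219). CDH17, CDH23 and CDH26 were near the limit of detection. In batch 2, group means of CDH17 ran from 5.33 ± 0.529 to 24.1 ± 10.6 and those of CDH26 from 3.86 ± 2.91 to 17.9 ± 5.86, and CDH23 was called in every line of batch 2 except HIF-1α, at no more than 17.8 normalized counts.

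**Figure D4:**
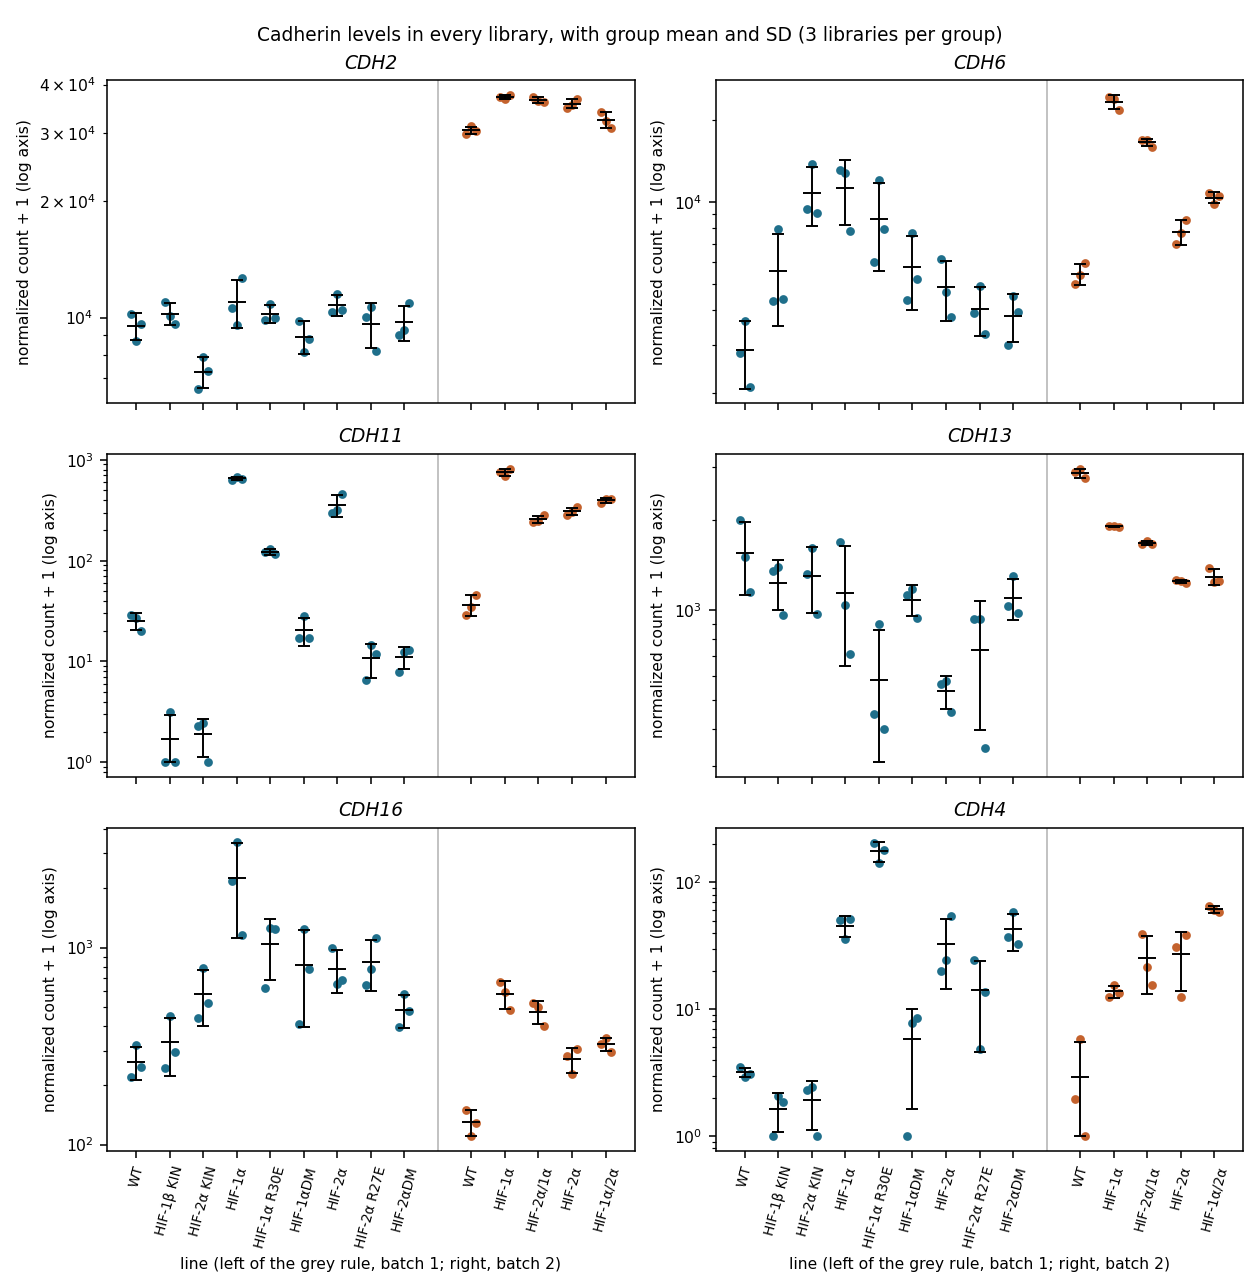
Normalized counts (plus 1, log axis) of 6 cadherin genes in every library, with group mean and SD (n = 3), batch 1 in blue and batch 2 in orange. CDH2 stays within a narrow range in each batch, CDH11 is near 0 in the knock-in clones and highest in HIF-1α, and CDH13 has its highest mean in WT.

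Each HIF-α was compared with its own mutants in batch 1. HIF1A was 3038 ± 233 in HIF-1α, 2512 ± 252 in R30E and 2249 ± 297 in HIF-1αDM. EPAS1 was 44694 ± 6296 in HIF-2α, 56676 ± 10267 in R27E and 48666 ± 5292 in HIF-2αDM. The mutation, the level of the transgene and the line cannot be told apart in these comparisons. HIF-1α exceeded HIF-1α R30E for 1 member, CDH11 (log2 2.42 ± 0.34, adjusted p = 2.58e-05), with 0 lower, beside 1.42% called higher and 0.329% lower of all genes. It exceeded HIF-1αDM for 3 members, CDH4, CDH11 (log2 5.04 ± 0.39, adjusted p = 1.87e-09) and ITGA4 (log2 2.22 ± 0.36, adjusted p = 2.67e-04), with 0 lower, beside 1.21% called higher and 0.158% lower. HIF-2α exceeded HIF-2α R27E for CDH11, ITGA5 and ITGB5 and was lower for ITGB2 and ITGB6, beside 2.09% called higher and 1.53% lower. Against HIF-2αDM the same 3 members were higher, and ITGB2, ITGB6 and ITGAX were lower, beside 2.48% called higher and 1.48% lower. The CDH11 difference was log2 5.16 ± 0.41, adjusted p = 9.87e-10 from R27E and log2 5.11 ± 0.40, adjusted p = 7.56e-10 from DM, that of ITGB5 log2 1.30 ± 0.17, adjusted p = 7.07e-06 and log2 1.20 ± 0.17, adjusted p = 2.1e-05, and that of ITGB2 from R27E log2 -1.44 ± 0.31, adjusted p = 0.00256. For ITGA4, HIF-2α and R27E differed by -0.06 ± 0.36, with a 95% interval of -0.80 to 0.67.

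Set directly against each other, HIF-2α and HIF-1α differed for 5 members in both batches. In batch 1, HIF-2α was higher for ITGB5 and lower for ITGA4, ITGAX, ITGB2, ITGB3 and ITGB6, beside 0.935% called higher and 1.46% lower of all genes. In batch 2 it was higher for ITGA1 and ITGB5 and lower for CDH6, CDH11, CDH16, ITGA4, ITGB2, ITGB3, ITGB6 and ITGB7, beside 1.64% called higher and 2.14% lower. Of the 6 members called in batch 1, 5 were called in batch 2 in the same direction. The share of all genes called again in this way is not given here, so this count is not a result about the members. These batches share no library, but the study's methods do not say whether their lines were made separately. The other member called in batch 1, ITGAX, had at most 46.3 normalized counts in batch 2. The difference was 1.29 ± 0.17 and 1.45 ± 0.05 for ITGB5 in batches 1 and 2, -2.47 ± 0.32 and -2.66 ± 0.13 for ITGB2, -1.51 ± 0.29 and -1.36 ± 0.07 for ITGB3, -1.70 ± 0.31 and -1.37 ± 0.12 for ITGB6, and -1.97 ± 0.36 and -1.31 ± 0.21 for ITGA4.

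Blocked on replicate number, in the comparisons of batch 1 whose libraries paired by number, edgeR called further members, all in the direction given above. In HIF-1αDM these were CDH16 (log2 1.57, adjusted p = 7.53e-04), ITGB4 (1.57, 0.00185), ITGB6 (1.18, 0.00236) and CDH6 (1.01, 0.00112). In HIF-2α R27E they were CDH16 (log2 1.72, adjusted p = 2.11e-04) and CDH13 (-1.14, 0.00141). HIF-1α added ITGB6 (log2 1.12, adjusted p = 8.28e-04), HIF-1β KIN added ITGB2 (-1.14, 6.21e-04) and HIF-2α KIN added CDH16 (1.13, 0.00403). HIF-2α was then also lower than HIF-1α in batch 1 for CDH16 (log2 -1.43, adjusted p = 4.48e-04), CDH6 (-1.18, 3.21e-05) and CDH13 (-1.05, 0.00111).

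The chimeras of batch 2 allowed the level to be read by IDR and by structured domain. The intervals and p-values do not cover the spread among separately made lines of a construct. The IDR effect is the mean difference between lines with the IDR of HIF-2α and lines with the IDR of HIF-1α, over both structured domains. It was called higher for ITGB5 (log2 1.11 ± 0.04, adjusted p = 4.02e-28), ITGB8 (log2 1.07 ± 0.05, adjusted p = 4.16e-22), ITGA1 (log2 1.34 ± 0.09, adjusted p = 2.27e-17) and CDH4 (log2 1.18 ± 0.34, adjusted p = 0.00551). It was called lower for ITGB2 (log2 -2.84 ± 0.10, adjusted p = 1.66e-27), CDH6 (log2 -1.13 ± 0.04, adjusted p = 7.17e-25) and ITGAX (log2 -1.91 ± 0.37, adjusted p = 4.05e-05). These 4 and 3 of 43 members stand beside 1.9% called higher and 2.5% lower of all genes. The structured-domain effect, the same difference taken between structured domains, was called for 0 members, beside 0.334% called higher and 0.707% lower of all genes. DESeq2 also called 0 members. At an unadjusted p under 0.05 there were 20 members, and the share of all genes at that cut is not given here. The largest structured-domain effects past the adjusted p were those of CDH11 (log2 -0.97 ± 0.09, adjusted p = 4.1e-11), ITGA4 (log2 -0.74 ± 0.15, adjusted p = 2e-04) and ITGB6 (log2 -0.73 ± 0.08, adjusted p = 1.85e-09). For ITGB2 the structured-domain effect was 0.18 ± 0.10, with a 95% interval of -0.02 to 0.37. That value averages differences of opposite sign, since ITGB2 was 252 ± 55.7 in HIF-2α and 124 ± 27.7 in HIF-1α/2α with the HIF-2α IDR, but 991 ± 148 in HIF-2α/1α and 1587 ± 38.7 in HIF-1α with the HIF-1α IDR. The interaction, in which the IDR effect differs with the structured domain, was called for 3 members, CDH11, ITGB2 and ITGB6, beside 1.18% of all genes in either direction. For these members the structured-domain effect is a mean of unequal differences. By the levels given above, the structured domains differed more with the HIF-1α IDR for CDH11 and with the HIF-2α IDR for ITGB6. A mean under 2-fold therefore does not show that the difference at each IDR was under 2-fold.

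**Figure D5:**
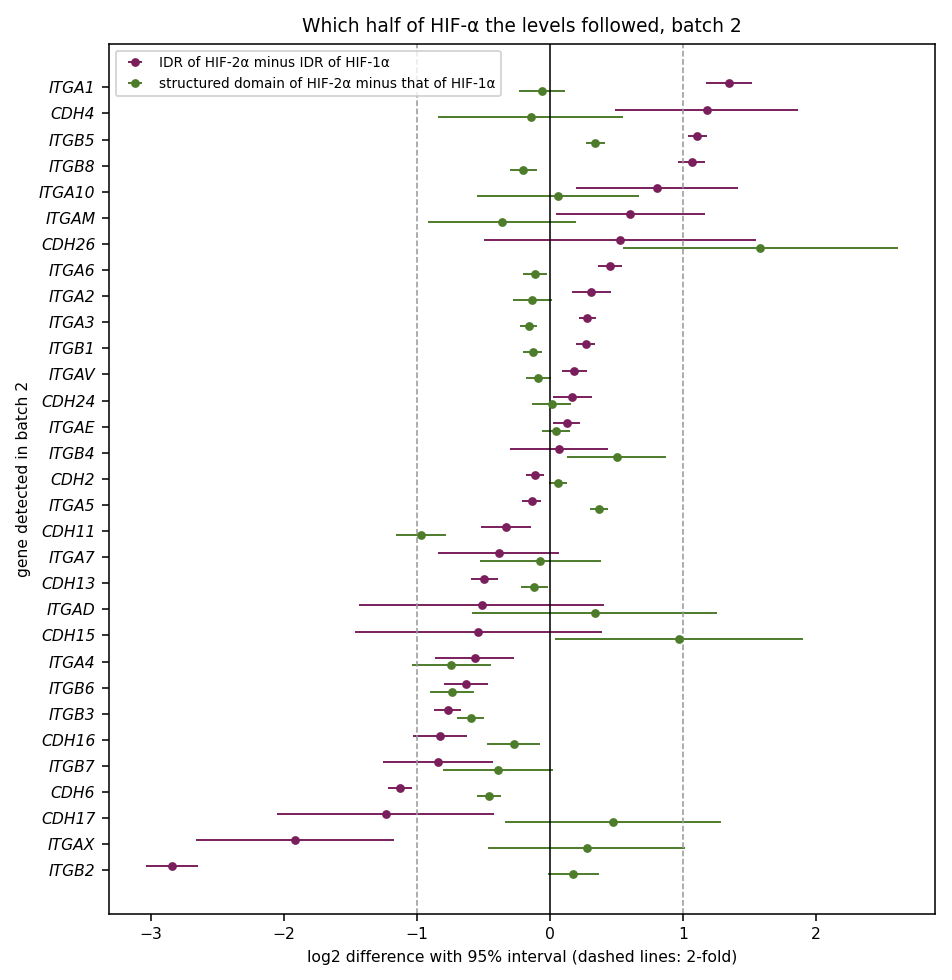
Log2 difference with 95% interval between lines with the IDR of HIF-2α and of HIF-1α (purple), and between lines with the structured domain of HIF-2α and of HIF-1α (green), for the 31 genes detected in batch 2; dashed lines mark 2-fold. ITGB2 lies at -2.84 and ITGA1 at 1.34 for the IDR, while the green points of both lie near 0, which for ITGB2 is the average of a higher and a lower value.

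The response to HIF-1α and to HIF-2α was compared between batches in a joint fit of the 3 groups that both batches hold, as batch 2 minus batch 1. Of 40 members tested, 0 were called for HIF-1α and 0 for HIF-2α, beside 0.00374% and 0% of all genes. DESeq2 also called 0 members. At an unadjusted p under 0.05 there were 4 and 8 members, and the share of all genes at that cut is not given here. The member with the smallest p-value was ITGB4 in the response to HIF-1α, log2 -1.85 ± 0.41, adjusted p = 0.694, which was called with the replicate number as a block (log2 -1.80, adjusted p = 0.00635). For CDH11 the difference was -0.50 ± 0.30 and -0.92 ± 0.30, and for ITGB5 -0.23 ± 0.19 and -0.05 ± 0.19.

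As shares of all α subunits per kilobase, ITGA3 made up 76.7% ± 1.47 in WT and 73.4% ± 2.99 in HIF-2α of batch 1, and 64.8% ± 0.468 and 65.8% ± 0.335 in batch 2. ITGA5 made up 18.3% ± 0.518 and 23.3% ± 2.65 in batch 1, and 18.5% ± 0.158 and 22.0% ± 0.539 in batch 2. As a share of all β subunits, ITGB5 was highest in the HIF-2α line among the 3 groups that both batches hold. It was 69.8% ± 1.59 in WT, 64.2% ± 0.757 in HIF-1α and 82.4% ± 2.82 in HIF-2α of batch 1, and 34.2% ± 2.16, 28.4% ± 0.944 and 51.0% ± 1.19 in batch 2. ITGB1 made up 22.8% ± 1.22 of β subunits in WT and 14.4% ± 2.37 in HIF-2α of batch 1, and 56.8% ± 1.83 and 44.1% ± 0.742 in batch 2. Of all cadherins per kilobase, CDH6 made up 9.65% ± 0.732 in WT, 27.1% ± 1.29 in HIF-1α and 11.7% ± 0.79 in HIF-2α of batch 2, and CDH2 78.2% ± 0.968, 62.8% ± 1.59 and 78.0% ± 0.713. These shares are of RNA, and a share can fall because another gene of the family rises. Their size also depends on the exon length used for each gene.

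The partners of these receptors were read against the share of all genes called with HIF-2α, which was 3.78% called higher and 1.94% lower in batch 1 and 5.45% called higher and 2.13% lower in batch 2. Of 21 adaptors that link integrins to actin (talins, kindlins, tensins and their partners), 2 were higher and 0 lower with HIF-2α in each batch, LIMS2 at log2 1.49 ± 0.25, adjusted p = 9.82e-05 and log2 1.35 ± 0.09, adjusted p = 6.7e-17 and TNS1. LIMS2 fell in HIF-1β KIN. With HIF-1α, TNS1 was called higher in batch 1 and not in batch 2. Of 11 catenins and junction partners tested in batch 1, 0 were higher and 1 lower with HIF-2α, JUP (plakoglobin) at log2 -1.15 ± 0.27, adjusted p = 0.00366, which also fell in both KIN clones. In batch 2 JUP was not called with HIF-2α and fell in HIF-1α/2α (log2 -1.77 ± 0.16, adjusted p = 4.25e-13). Among the desmosomal cadherins DSC2 (desmocollin), like CDH11, was called in opposite directions in exogenous lines and knock-in clones. It rose by log2 4.35 ± 0.59, adjusted p = 2.04e-05 with HIF-1α and log2 3.62 ± 0.58, adjusted p = 9.72e-05 with HIF-2α in batch 1, rose in all 4 lines of batch 2, and fell in both KIN clones. The integrin ligands changed in both directions. With HIF-2α, LAMA4 and LAMB2 were higher in both batches, 2 of 23 tested in batch 1 and 2 of 24 in batch 2. The LAMA4 change of batch 1 had a wide standard error (log2 4.06 ± 1.05). FN1, LAMB3, TNC and VCAM1 were among those lower in both batches, L1CAM was lower in batch 1 and SPP1 in batch 2. FN1, a ligand of ITGA5 and ITGA4, changed by log2 -2.34 ± 0.33, adjusted p = 1.04e-05 and log2 -2.20 ± 0.05, adjusted p = 1.19e-34 in HIF-2α. VCAM1, another ligand of ITGA4, changed by log2 -2.52 ± 0.29, adjusted p = 4.82e-07 and log2 -3.18 ± 0.08, adjusted p = 3.99e-33. For the IDR effect, 1 of 24 ligands was higher (LAMA4) and 7 lower, beside 1.9% called higher and 2.5% lower of all genes. Those lower included VCAM1 (log2 -3.11 ± 0.05, adjusted p = 1.41e-38), L1CAM (log2 -2.42 ± 0.06, adjusted p = 1.3e-31) and FN1 (log2 -1.72 ± 0.03, adjusted p = 1.08e-36).

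Leaving out each library in turn, 45 of 65 member calls of batch 1 and 58 of 67 of batch 2 were made in every such fit. In batch 1 the calls of CDH11 and ITGB5 given above were among those 45, as were all calls of ITGA4. The ITGA4 calls lost in fits of only the groups compared are given above, and such a fit also lost CDH11 in HIF-1β KIN (adjusted p = 0.0144). Other calls depended on 1 library. CDH13 in HIF-1α R30E was lost without WT library 1 (adjusted p = 0.0751), WT library 2 (adjusted p = 0.0251) or R30E library 1 (adjusted p = 0.0666) or 3 (adjusted p = 0.0753), and in HIF-2α without WT library 1 (adjusted p = 0.0236) or HIF-2α library 3 (adjusted p = 0.0161). CDH16 in HIF-2α was lost without any 1 of the WT libraries (highest adjusted p = 0.03) or HIF-2α library 1 (adjusted p = 0.0311), and in R30E without WT library 1 (adjusted p = 0.0116). CDH6 in R30E was lost without WT library 3 (adjusted p = 0.0108). ITGB4 in R30E was lost without WT library 2 (adjusted p = 0.0118) or R30E library 3 (adjusted p = 0.0139). ITGB7 in HIF-2α was lost without WT library 1 (adjusted p = 0.0219) or 2 (adjusted p = 0.0102) or HIF-2α library 2 (adjusted p = 0.0226) or 3 (adjusted p = 0.0123). ITGA3 in HIF-1β KIN was lost without WT library 1 (adjusted p = 0.0255) or 2 (adjusted p = 0.0202) or KIN library 3 (adjusted p = 0.0246).

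Between the HIF-2α line and its mutants, the ITGB6 call was lost without any 1 of the 3 HIF-2α libraries (highest adjusted p 0.0339 against R27E and 0.043 against DM), without R27E library 1 (adjusted p = 0.0538) or 2 (adjusted p = 0.0208), or without any 1 DM library. The ITGB2 call was lost without HIF-2α library 1 or 2 in both comparisons (adjusted p = 0.0278 and 0.0212 against R27E, 0.0191 and 0.0142 against DM) and without R27E library 2 (adjusted p = 0.0111). ITGA5 against DM fell just under 2-fold without HIF-2α library 1 or 3 or DM library 1 (lowest log2 difference 0.96). ITGAX against DM was lost without HIF-2α library 2 or 3 or DM library 2 or 3 (highest adjusted p 0.0379). In batch 2, CDH16 fell under 2-fold in HIF-2α without WT library 2 or HIF-2α library 3 (lowest log2 change 0.96) and between HIF-2α and HIF-1α without HIF-1α library 1 or HIF-2α library 2 (-0.99 and -0.99). ITGB6 in HIF-1α/2α fell under 2-fold without HIF-1α/2α library 1 or 3 (0.99 and 0.97), and ITGB7 between HIF-2α and HIF-1α was lost without HIF-2α library 2 (adjusted p = 0.0111).

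The remaining calls that were lost were of 5 members with few counts. CDH15 in HIF-2α KIN was lost without any 1 WT library or KIN library 2 or 3 (highest adjusted p 0.0417), in HIF-1α R30E without any 1 WT library or R30E library 2 or 3 (0.0312), and in HIF-2α/1α without WT library 1 or 3 or its own library 1 (0.0131). ITGA11 was lost without any 1 WT library in R30E (highest adjusted p 0.0191) and without any 1 WT library or HIF-2α library 1 or 2 in HIF-2α of batch 1 (0.0404). CDH4 was lost without any 1 WT library in HIF-2αDM (highest adjusted p 0.0162), without HIF-1α library 1 or 3 or any 1 DM library between HIF-1α and HIF-1αDM (0.0248), and without WT library 1 or 3 or HIF-1α library 2 in HIF-1α of batch 2 (0.0274). CDH23 in HIF-2α/1α was lost without any 1 WT library or its own library 1 (highest adjusted p 0.0675), and CDH3 in HIF-1α/2α likewise (0.0333). The CDH4 call of the IDR effect was lost without HIF-1α library 1 or 3, HIF-1α/2α library 1 or 2, HIF-2α library 1 or 3 or HIF-2α/1α library 2 or 3, at an adjusted p of at most 0.0275.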

How the data were processed

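Poly-A RNA-seq counts of 42 libraries in 14 groups of 3 were used. Per the labels and the methods of the study, the authors aligned reads to hg38 with STAR and counted unique reads per GENCODE v32 gene with HTSeq in union mode without strand, so reads shared by overlapping genes were not counted. The submitters' processing notes name STAR 2.7 and HTSeq 0.11.1, and the study's methods other versions. The deposited values are raw counts per gene. The authors added spike-ins in batch 1, which were not used here. HIF-2αDM was assigned by its title, since its genotype label names HIF-1α.

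Each batch was fitted alone with edgeR 4.0.16 (R 4.3.3; TMM scaling, quasi-likelihood test) over genes averaging 0.5 or more normalized counts. Standard errors came from the change and its F statistic. Calls needed an adjusted p of at most 0.01 and a 2-fold change. Values in every library were given for members with a mean raw count of at least 50 that were called against WT, at most 12 per batch by size of change, and other detected members by their group range. ITGA3, CDH2, ITGA11, CDH1, CDH3, CDH4, CDH7 and CDH15 were given in full after their values were seen. Alternatives were DESeq2 1.42.0, RLE size factors, no filter, a replicate block, only the groups compared and leaving out each library. The scripts were tested on simulated data. In batch 1, libraries with the same number deviated together (average r 0.242), with every pair above 0.1 in 7 of 13 comparisons. The members and lists were chosen with earlier results of these data known. Some listed items are not reported here. Library totals limit precision only for members with few counts. Positions are those of the hg38 annotation in GENCODE v44. The labels and methods call the libraries biological replicates.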

Additional observations from a re-analysis of the deposited data

Results flagged for a closer look

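In 3 members the ratio of the HIF-2α IDR to the HIF-1α IDR depended on the structured domain it was joined to, by the interaction term of edgeR's fit of batch 2. For CDH11 the log2 interaction was 1.20. The HIF-2α IDR gave 1.21 times the level on the structured domain of HIF-2α and 0.525 times on that of HIF-1α. For ITGB2 the interaction was 1.72, with 0.254 times the level on the HIF-2α domain and 0.0783 times on the HIF-1α domain. For ITGB6 it was -1.09, with 0.442 times the level on the HIF-2α domain and 0.941 times on the HIF-1α domain.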

How the results depend on the processing

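Of the changes of named genes under the alternatives, 1313 kept their side of the threshold, 78 passed it newly, 55 no longer passed it and 0 turned direction. The count of members called moved by over 1.5 times as follows. DESeq2 gave 5 members for HIF-1αDM against WT, 3 for HIF-2α R27E against WT, 3 for HIF-1α against HIF-1α R30E and 5 for HIF-1α against HIF-1αDM. Without the filter on low counts these were 6, 3, 3 and 5. With the replicate block they were 6, 3, 4 and 5, and the batch difference in the response to HIF-1α had 1 (ITGB4, log2 -1.80). A fit of only the groups compared gave 1 member for HIF-2αDM against WT and 0 for each of HIF-1β KIN, HIF-2α R27E and HIF-1αDM (main 3, 1 and 1), and 2 for HIF-1α against HIF-1α R30E. Libraries numbered 1 and 2 alone, an alternative chosen after seeing the data, gave 2 for HIF-1α against HIF-1α R30E and 5 for HIF-1α against HIF-1αDM. Leaving out 1 library at a time gave 6 to 9 members for HIF-1α R30E, 1 to 3 for HIF-1αDM and 1 to 2 for HIF-2αDM against WT, 3 to 5 for HIF-2α against R27E and 3 to 4 for HIF-2α against HIF-2αDM. The cause was not tested. The share of all genes called under each alternative is not given here, so these counts cannot be set beside it. In batch 2 the same-numbered libraries did not deviate together (average r 0.00327), so there the number is only a name. Members under 10 mean raw counts are at the limit of this depth.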
